A study of Mus musculus with 6 samples.

Results

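The ERBB receptors and their EGF-like ligands were followed here in mouse high-grade glioma cells. The genes were Egfr, Erbb2 and Erbb3 among the receptors and Tgfa, Hbegf, Areg, Ereg, Btc and Egf among the ligands. Every probe set that the array's annotation gave to one of these symbols was taken, which found 17 of the 22626 non-control probe sets, for 8 of the 9 genes. Egfr had 5 probe sets, Tgfa 3, Erbb3, Hbegf and Btc 2 each, and Erbb2, Ereg and Egf 1 each. No probe set carried the symbol Areg in the annotation used here, so Areg was not analysed.

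Of the 6 arrays, 4 held cells of tumours driven by EGFRvIII and 2 held cells of tumours driven by PDGF-B. EGFRvIII is a mutant EGF receptor that lacks part of its outer domain and signals without ligand, and PDGF-B is the ligand of the PDGF receptors. Neural progenitors from embryos of day 14 had received a retrovirus carrying one driver and a fluorescent reporter on a single transcript, were placed in the brains of adult BALBc mice, and reporter-positive cells were sorted after symptoms began. The progenitors came from BALBc INK4a -/- embryos in all 4 EGFRvIII samples and from BALBc embryos in both PDGF-B samples. Driver and INK4a genotype therefore cannot be told apart in any comparison. The sources used here give neither the species of the EGFRvIII sequence nor the position of the Egfr probes, so whether a probe set reads the transgene, the resident Egfr gene or both is unknown.

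ERBB receptors are tyrosine kinases of the cell surface that work in pairs. EGF-like ligands are made as membrane proteins, are cut free by metalloproteases and bind the outer part of a receptor; Tgfa, Hbegf, Areg, Ereg, Btc and Egf all bind Egfr. Erbb2 has no known ligand of its own and Erbb3 has little kinase activity, so both act mainly as partners. In the forebrain, Egfr is known as a receptor of dividing progenitors and of astrocytes, and its gene is often amplified in human glioblastoma.

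Values are log2 RMA intensities, in which 1 unit is a doubling, and differences are EGFRvIII minus PDGF-B on that log2 scale with their standard error (SE) from limma. Levels of different probe sets are not set against each other, since each has its own response. A probe set is called bright where it exceeded its array's median in at least 2 arrays, as 53.0% of all probe sets did, and dim otherwise; 8 of the 17 were bright and 9 dim. With 4 arrays against 2, an exact permutation test cannot give a p below 0.0667, so the limma fit across all 22626 probe sets was used throughout. The number of arrays limits the precision. The samples are bulk RNA, in which fewer cells of a type and less RNA per cell cannot be told apart.

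Cdkn2a, the gene of the INK4a locus, stood at 3.76 ± 0.04 in EGFRvIII cells and 6.80 ± 0.04 in PDGF-B cells (SD, n = 4 and 2). All 8 glioma progenitor markers with a probe set, Olig2, Sox10 and Pdgfra among them, were bright, with array means of 11.20 to 11.58 in EGFRvIII cells and 11.28 and 11.33 in PDGF-B cells. Single markers moved in both directions, 5 of the 8 upward, and none had an adjusted p under 0.05. Nkx2-2 had a log2 difference of 2.05 (limma adjusted p = 0.0697), with every EGFRvIII array above both PDGF-B arrays. Pdgfra and Nes had -0.86 and -0.50 (limma adjusted p = 0.185 and 0.232), and Pdgfra lay wholly below. Microglia and macrophage markers (0 of 12 bright), endothelial markers (0 of 8) and epithelial markers (0 of 7) stayed low, with array means between 3.98 and 4.79 in every array. Among them, epithelial Epcam reached 6.44 and 6.39 in EGFRvIII replicates 1 and 2, and endothelial Flt1 reached 6.48 in PDGF-B replicate 2. Of 9 pericyte and fibroblast markers 1 was bright, with array means of 5.44 to 5.68 in EGFRvIII cells and 5.44 and 5.41 in PDGF-B cells. Acta2 of that list stood at 5.28, 6.58, 7.33 and 5.56 in EGFRvIII replicates 1 to 4 and at 4.60 and 4.99 in PDGF-B cells. The non-coding RNA Xist was low in EGFRvIII replicates 1 and 2 (3.85 and 4.46) and high in the other 4 arrays (11.70 to 12.38), and the Y-linked gene Kdm5d was high only in those 2 arrays (9.40 and 8.97, against 3.39 to 3.58).

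No ERBB receptor or ligand probe set passed the test between the drivers. Of the 17 probe sets 0 were called (limma, Benjamini-Hochberg adjusted p under 0.05), against a background of 0.849% of all probe sets (0.557% higher and 0.292% lower), and 4 had an unadjusted p under 0.05, or 23.5%, against 20.0% of all. The same 4 were those in which all 4 EGFRvIII arrays lay above both PDGF-B arrays, which 15.8% of all probe sets did: both Hbegf probe sets, 1 of Tgfa and 1 of Egfr. None lay wholly below, which 15.7% of all did, so the groups were separate in 4 of 17 probe sets and in 31.5% of all. The median log2 difference was 0.18 over the 17 probe sets and -0.0045 over all probe sets. The adjusted p ran from 0.131 for Hbegf to 0.872 for Ereg. Values are given array by array below, since arrays of the EGFRvIII group lay far apart for several of these genes.

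**Figure D1:**
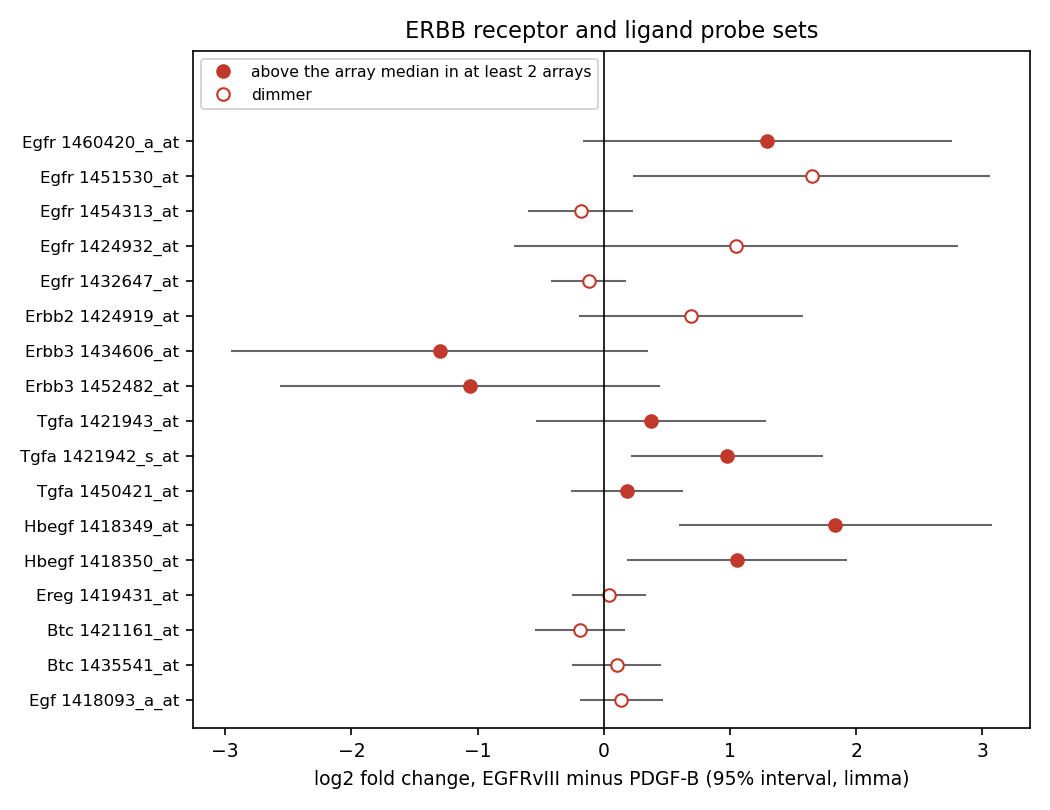
Log2 differences (EGFRvIII minus PDGF-B, x axis) of the 17 ERBB receptor and ligand probe sets (rows), with 95% intervals from limma; filled points mark probe sets above the array median in at least 2 arrays, open points the dim ones. The intervals of both Hbegf probe sets, of Tgfa 1421942_s_at and of Egfr 1451530_at lie above 0 before adjustment, and both Erbb3 points lie left of 0.

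Among the receptors, Egfr varied widely within the EGFRvIII group. Its brightest probe set, 1460420_a_at, stood at 7.68, 6.17, 8.78 and 7.74 in EGFRvIII replicates 1 to 4 and at 6.40 and 6.20 in PDGF-B replicates 1 and 2. Replicate 3 was the high array, replicates 1 and 4 lay close together in the middle, and replicate 2 lay at the PDGF-B level, so the groups overlapped. The mean was 7.59 ± 1.07 in EGFRvIII cells and 6.30 ± 0.14 in PDGF-B cells, a log2 difference of 1.30 (SE 0.62, 95% interval -0.17 to 2.76, adjusted p = 0.298). The interval includes 0, and the difference was 1.77 without EGFRvIII replicate 2 and 0.90 without EGFRvIII replicate 3, neither of which passed. Its SD among the EGFRvIII arrays was larger than that of 98.6% of all probe sets.

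A second Egfr probe set, 1451530_at, gave 6.40, 4.99, 7.53 and 6.29 in EGFRvIII replicates 1 to 4 and 4.73 and 4.58 in PDGF-B cells. Here even EGFRvIII replicate 2 lay above both PDGF-B arrays, by a small margin. The log2 difference was 1.65 (SE 0.60, adjusted p = 0.197), with only replicate 3 above its array's median. The probe set 1424932_at repeated the shape, with 5.61, 3.90, 6.95 and 4.98 in EGFRvIII cells and 4.66 and 3.97 in PDGF-B cells (log2 difference 1.05, SE 0.75, adjusted p = 0.472). Without EGFRvIII replicate 3 it was 0.52, and without PDGF-B replicate 2 it was 0.70. In all 3 of these probe sets EGFRvIII replicate 3 was highest and replicate 2 lowest, and the distance between the 2 arrays was 2.61, 2.54 and 3.05, or 6.09-fold, 5.80-fold and 8.27-fold.

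The other 2 Egfr probe sets, 1454313_at and 1432647_at, varied less among the EGFRvIII arrays. The first stood at 5.56, 5.43, 5.85 and 5.27 in EGFRvIII cells and 5.76 and 5.67 in PDGF-B cells (log2 difference -0.18, SE 0.18, adjusted p = 0.600). The second reached at most 3.52 in EGFRvIII cells and stood at 3.47 and 3.71 in PDGF-B cells (log2 difference -0.12, SE 0.13, adjusted p = 0.634). Both were below the array median in all 6 arrays, and replicate 3 exceeded replicate 2 by only 0.42 in the first and was 0.12 below it in the second. In the platform annotation these 2 share 1 source sequence, which differs from those of the other 3; no source used here says which Egfr transcripts each reads.

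**Figure D2:**
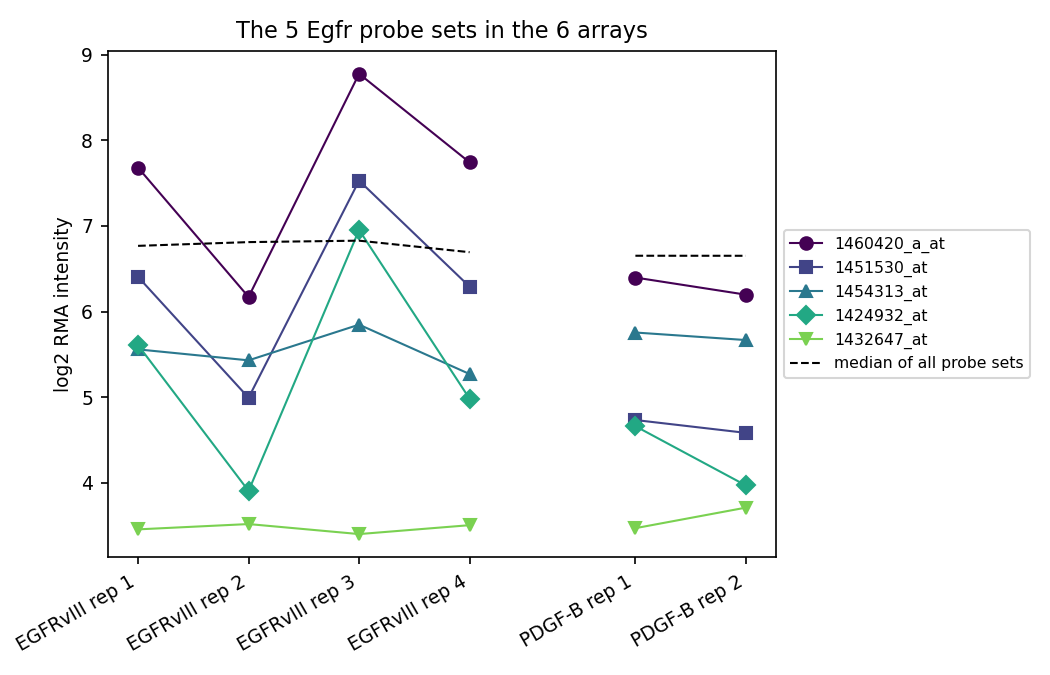
Log2 RMA intensity (y axis) of each of the 5 Egfr probe sets in the 4 EGFRvIII and the 2 PDGF-B arrays (x axis); lines only join the values of 1 probe set, and the dashed line is the median of all probe sets. In 3 probe sets EGFRvIII replicate 3 is highest and replicate 2 lies near the PDGF-B arrays, while the other 2 probe sets vary less between these arrays and stay below the dashed line.

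Erbb2, the partner receptor without a ligand, had a dim probe set with the same array at the top. It stood at 5.26, 4.76, 6.28 and 5.42 in EGFRvIII replicates 1 to 4 and at 4.67 and 4.81 in PDGF-B cells. Replicate 3 was 1.52 above replicate 2, which lay between the PDGF-B arrays. The log2 difference was 0.69 (SE 0.38, 95% interval -0.20 to 1.58, adjusted p = 0.354), and 0.41 without EGFRvIII replicate 3.

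Erbb3, the partner receptor best known as a neuregulin receptor, ran the other way. Its probe set 1434606_at was at 7.79, 10.39, 9.23 and 9.41 in EGFRvIII replicates 1 to 4 and at 9.79 and 11.22 in PDGF-B cells. The other, 1452482_at, was at 5.85, 7.83, 6.84 and 7.17 in EGFRvIII cells and at 7.07 and 8.89 in PDGF-B cells. Both placed EGFRvIII replicate 2, the array with the lowest Egfr by probe set 1460420_a_at, highest of its group and replicate 1 lowest. In both, PDGF-B replicate 2 was the highest of all 6 arrays. The groups overlapped, with log2 differences of -1.30 (SE 0.70, adjusted p = 0.350) and -1.06 (SE 0.64, adjusted p = 0.399). The PDGF-B arrays themselves lay 1.43 and 1.82 apart, farther than the group means, and the first difference was -2.02 without PDGF-B replicate 1 and -0.58 without PDGF-B replicate 2. The second was -1.97 and -0.15 without the same arrays.

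Among the ligands, Hbegf, heparin-binding EGF-like growth factor, had the largest difference between drivers. Probe set 1418349_at stood at 7.65, 7.09, 8.92 and 7.22 in EGFRvIII replicates 1 to 4 and at 5.46 and 6.31 in PDGF-B cells. Probe set 1418350_at stood at 7.18, 6.77, 8.14 and 6.87 in EGFRvIII cells and at 6.19 and 6.18 in PDGF-B cells. In both, every EGFRvIII array lay above both PDGF-B arrays, replicate 3 was highest and replicate 2 lowest. The log2 differences were 1.83 (SE 0.52, a fold of 3.56, adjusted p = 0.131) and 1.06 (SE 0.37, a fold of 2.08, adjusted p = 0.184), and neither passed. The first was 1.43 without EGFRvIII replicate 3 (adjusted p = 0.109).

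Hbegf is known as a gene that cells switch on quickly after stress or growth factor signals, as are Fos and Egr1. All 16 genes of a list of such immediate early genes had a probe set. Their array means were 8.85, 9.55, 8.77 and 8.81 in EGFRvIII replicates 1 to 4 and 8.22 and 8.72 in PDGF-B cells. The list was highest in EGFRvIII replicate 2, the array in which Hbegf was lowest of its group. None of the 16 was called; Dusp1, a phosphatase of MAP kinases, Fos and Zfp36, an RNA-binding protein that speeds mRNA decay, had log2 differences of 1.29, 1.67 and 1.86 (adjusted p = 0.0615, 0.0752 and 0.0803). Dusp1 passed in 3 of 16 alternative settings, over which its adjusted p ran from 0.0387 to 0.225. In 8 of the 16 all EGFRvIII arrays lay above both PDGF-B arrays, against 16.7% of all genes by their brightest probe set, and 1, Egr1, lay wholly below. Of the 16, 12 had a positive log2 difference, against 49.6% of all genes by their brightest probe set. Egr1, Egr2 and Ier3 had -0.43, -1.04 and -0.89. The part of these genes in the Hbegf difference was not tested.

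Tgfa, transforming growth factor alpha, was above the array median in at least 4 arrays in all 3 probe sets, and the 3 differed in what they showed. Probe set 1421943_at stood at 9.34, 9.57, 8.41 and 9.79 in EGFRvIII replicates 1 to 4 and at 8.60 and 9.20 in PDGF-B cells (log2 difference 0.37, SE 0.39, adjusted p = 0.628). That difference was 0.07 without PDGF-B replicate 1 and 0.67 without PDGF-B replicate 2. Probe set 1421942_s_at stood at 7.20, 7.72, 6.78 and 7.46 in EGFRvIII cells and at 5.88 and 6.75 in PDGF-B cells. There every EGFRvIII array was above both PDGF-B arrays, replicate 3 by only 0.03 (log2 difference 0.98, SE 0.32, adjusted p = 0.168; 0.54 without PDGF-B replicate 1). Probe set 1450421_at ran from 6.54 to 7.14 in EGFRvIII cells and stood at 6.74 and 6.77 in PDGF-B cells (log2 difference 0.18, SE 0.19, adjusted p = 0.624; 0.32 without EGFRvIII replicate 3). In all 3, EGFRvIII replicate 3 was the lowest of its group. It was also lowest in the dim Egfr 1432647_at, where the EGFRvIII arrays spanned only 0.12. In both Hbegf probe sets and in Egfr 1460420_a_at, 1451530_at, 1454313_at and 1424932_at EGFRvIII replicate 3 was the highest.

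The remaining ligands were dim in all 6 arrays. Egf, the founding ligand, ran from 4.70 to 4.85 in EGFRvIII cells and was 4.79 and 4.45 in PDGF-B cells (log2 difference 0.14, 95% interval -0.19 to 0.47; -0.03 without PDGF-B replicate 2). Ereg, epiregulin, stayed between 2.86 and 3.08 over both groups (log2 difference 0.04, 95% interval -0.25 to 0.34; -0.08 with each array centred on its median). The Btc (betacellulin) probe sets 1421161_at and 1435541_at ran from 3.72 to 3.95 and from 2.98 to 3.39 in EGFRvIII cells and stood at 3.86 and 4.22 and at 3.09 and 3.14 in PDGF-B cells (log2 differences -0.19 and 0.10, the second -0.02 with each array centred on its median; adjusted p = 0.515 and 0.743). None of these 4 probe sets separated the groups.

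**Figure D3:**
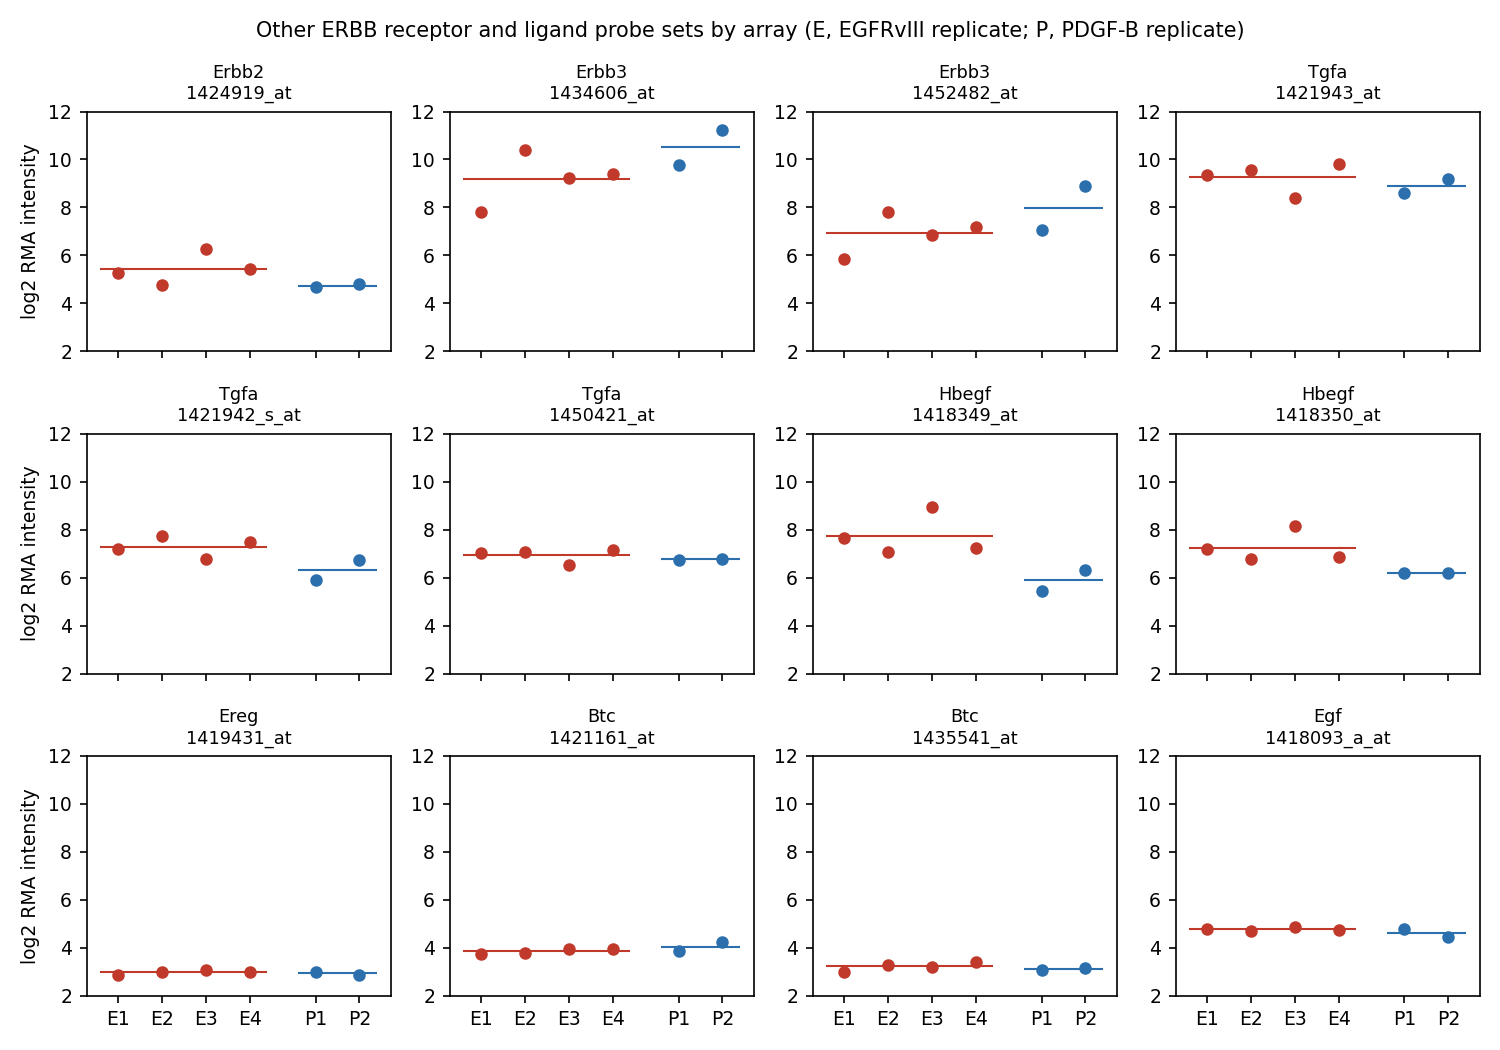
Log2 RMA intensity (y axis, 2 to 12 in every panel) of the 12 probe sets of Erbb2, Erbb3 and the ligands in EGFRvIII replicates 1 to 4 (E1 to E4) and PDGF-B replicates 1 and 2 (P1 and P2); each point is 1 array and each line a group mean. Both Hbegf panels show every EGFRvIII point above both PDGF-B points, Erbb3 scatters in both groups, and Ereg, Btc and Egf stay near the bottom.

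Within the EGFRvIII group, some probe sets of Egfr and those of Hbegf and Egf shared an order of arrays. The order replicate 3, 1, 4, 2 from high to low was read from Hbegf 1418349_at, which therefore holds it by construction. With that probe set counted, it was held by 5 of the 17 probe sets (29.4%), and by 6.02% of all probe sets. Since the order came from a member, these shares are a description and not a test. They were Egfr 1451530_at and 1424932_at, both Hbegf probe sets and the dim Egf probe set, whose arrays differed by 0.15 at most. The brightest Egfr probe set and Erbb2 differed from this order only in replicates 1 and 4, which lay within 0.16 of each other in both. Erbb3 had the order 2, 4, 3, 1 in both probe sets, and Tgfa had replicate 3 last in all 3. Probe sets of 1 gene may read the same transcript, so the 17 probe sets of 8 genes are not taken as 17 independent readings.

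By the root mean square distance over the 6 arrays, after each probe set was centred on its own mean, the genes nearest to Egfr 1460420_a_at among 6761 bright genes were Acsbg1, a long-chain acyl-CoA synthetase, at 0.18, Glud1, glutamate dehydrogenase, at 0.22, Igfbp2, a binding protein of insulin-like growth factors, at 0.26, Sema6d, a semaphorin, at 0.27, and Apoe, apolipoprotein E, at 0.29. Acsbg1 stood at 8.05, 6.44, 9.30 and 7.74 in EGFRvIII replicates 1 to 4 and at 6.89 and 6.37 in PDGF-B cells. Those nearest to Hbegf 1418349_at were Prss23, a serine protease, at 0.23, Acadl, a long-chain acyl-CoA dehydrogenase, at 0.29, Efhd2, a calcium-binding protein, at 0.30, Myo6, a myosin, at 0.32, and Adhfe1, a mitochondrial dehydrogenase, at 0.34. The distance is a description over 6 arrays, chosen as the closest of many genes.

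Most astrocyte markers were high in the EGFRvIII array with the highest Egfr by probe set 1460420_a_at. The mean of 8 such markers was 7.94, 6.99, 8.89 and 7.68 in EGFRvIII replicates 1 to 4 and 6.30 and 6.54 in PDGF-B cells, which is the order 3, 1, 4, 2 again. Of the 8 markers, 6 were highest in EGFRvIII replicate 3, 6 had replicate 2 as the lowest of the group, and 3 (Gfap, Slc1a3 and Aldh1l1) held the whole order. Of all probe sets, 26.9% had replicate 3 as the highest of the group and 6.02% held the whole order. Gfap, the intermediate filament of astrocytes, stood at 6.61, 5.36, 7.68 and 5.56 in EGFRvIII cells and at 4.84 and 4.60 in PDGF-B cells (log2 difference 1.58, SE 0.62, adjusted p = 0.221), above the array median only in replicate 3. Gja1, connexin 43, by probe set 1437992_x_at, was 8.71 in EGFRvIII replicate 3, from 3.46 to 5.52 in the other EGFRvIII arrays, and 3.70 and 3.79 in PDGF-B cells. Of the 8 markers 4 were dim, Gfap, the water channel Aqp4 and Aldh1l1 among them, and 0 were called. All 8 had a positive log2 difference (median 1.34), against 49.6% of all genes by their brightest probe set. Aqp4 was highest in EGFRvIII replicate 1 by its brightest probe set and in EGFRvIII replicate 3 (5.17) by the other, 1425382_a_at. S100b, which oligodendrocyte progenitors also make, was highest in EGFRvIII replicate 2 (12.35). The part of astrocyte markers in the Egfr differences was not tested.

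**Figure D4:**
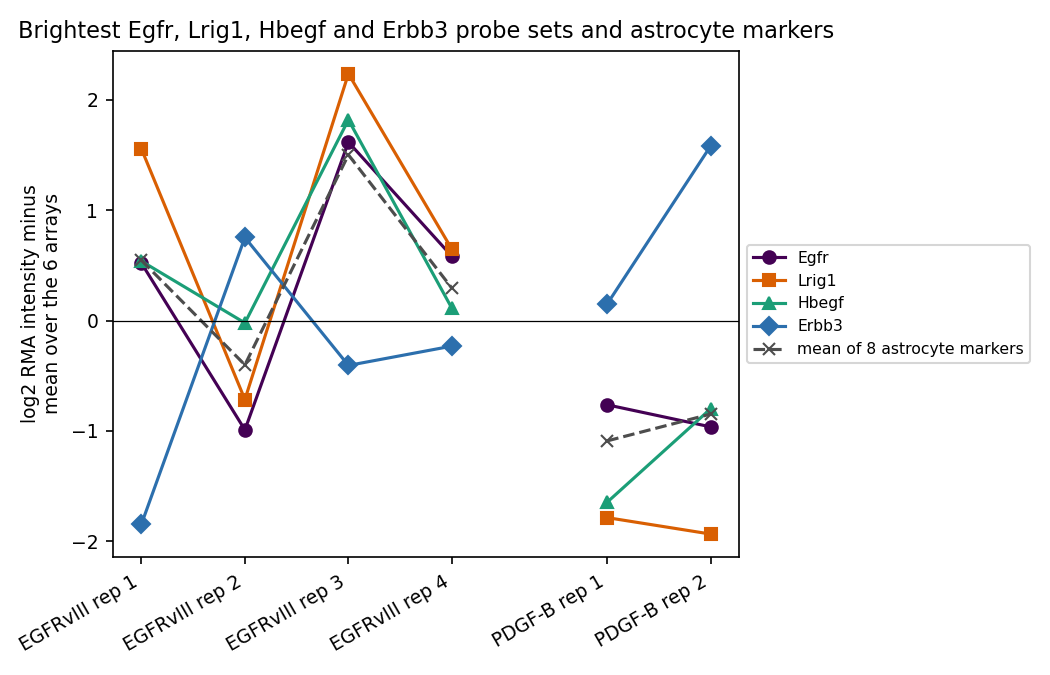
Log2 RMA intensity minus each series' own mean over the 6 arrays (y axis) in the EGFRvIII and PDGF-B arrays (x axis), for the brightest probe sets of Egfr, Lrig1, Hbegf and Erbb3 and for the mean of 8 astrocyte markers (dashed); lines only join values of 1 series. Egfr, Lrig1, Hbegf and the astrocyte mean all peak in EGFRvIII replicate 3, and Erbb3 is lowest in EGFRvIII replicate 1 and highest in PDGF-B replicate 2.

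Genes that act around the receptors were read from lists, each gene by its brightest probe set. Over all 12393 genes, 0.831% were called, 0.573% higher and 0.258% lower, with a median log2 difference of -0.003. Of the ERBB inhibitors and sorting proteins, 16 of 19 had a probe set, 0 were called higher and 2 lower, and the median log2 difference was 0.10 (-0.02 with each array centred on its median). Of the sheddases and their regulators, 6 of 8 had one, 1 was called higher and 0 lower, with a median of -0.20. Of the adaptors and proximal effectors, 24 of 26 had one and 0 were called in either direction, with a median of 0.06 (-0.06 after centring).

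The inhibitors called lower were Socs5 and Cbl. Socs5, an adaptor that promotes loss of the EGF receptor in cultured cells, stood at 7.98, 8.25, 8.02 and 7.88 in EGFRvIII replicates 1 to 4 and at 8.97 and 8.98 in PDGF-B cells. It fell by 0.94 on the log2 scale (SE 0.14, adjusted p = 0.0453), and its other probe set had a log2 difference of -0.64 (adjusted p = 0.162). Cbl, the ubiquitin ligase that marks active receptors for degradation, stood at 9.38, 9.25, 9.35 and 9.36 in EGFRvIII cells and at 10.09 and 10.03 in PDGF-B cells. It fell by 0.73 on the log2 scale (SE 0.11, adjusted p = 0.0493), with -0.58 in its other probe set (adjusted p = 0.185). All EGFRvIII arrays lay below both PDGF-B arrays in all 4 probe sets, by 0.73 and 0.66 in the called ones of Socs5 and Cbl and by only 0.10 and 0.19 in their others. The calls sat at the threshold. Among 16 alternative settings, Socs5 no longer passed in 8 and Cbl in 10.

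Lrig1, a leucine-rich transmembrane protein that binds ERBB receptors and lowers their amount, had the largest log2 difference of the inhibitors and did not pass; it was chosen for mention after its values were seen. Its brightest probe set stood at 10.52, 8.25, 11.20 and 9.61 in EGFRvIII replicates 1 to 4 and at 7.18 and 7.03 in PDGF-B cells. The arrays again ran 3, 1, 4, 2, and here even replicate 2 was more than 1 unit above PDGF-B cells. The log2 difference was 2.79 (SE 0.73, adjusted p = 0.111), and 3.08 and 0.89 in its other probe sets (adjusted p = 0.0967 and 0.168). Without EGFRvIII replicate 2 it was 3.34 and passed (adjusted p = 0.0313).

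Timp3, an inhibitor of the metalloproteases that free EGF-like ligands, was called higher. It stood at 10.28, 10.28, 10.21 and 9.69 in EGFRvIII replicates 1 to 4 and at 8.23 and 8.88 in PDGF-B cells, a rise of 1.56 (SE 0.25, adjusted p = 0.0493). Its other 3 probe sets had log2 differences of 1.57, 1.42 and 1.60 and did not pass (adjusted p = 0.0778, 0.0826 and 0.0775). Timp3 no longer passed in 11 of the 16 alternative settings. The sheddases Adam10 and Adam17 had log2 differences of -0.48 and -0.13 and Adam9 one of 0.55 (adjusted p = 0.111, 0.654 and 0.120). Of the adaptors and effectors, the smallest p belonged to Stat5b, a transcription factor downstream of the receptors, with a log2 difference of -0.50 (adjusted p = 0.0904). The other Stat5b probe set had -0.27 (adjusted p = 0.356). Next came Grb7, an adaptor that was dim in every array, with -0.32 (adjusted p = 0.339). Then came Akt2, a kinase, with 0.29 in one probe set and -0.29 in the other (adjusted p = 0.352 and 0.332).

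Of 6 other ERBB family genes, Erbb4, Nrg3, Nrg4 and Epgn had a probe set, all dim, and 0 were called; the other 2 were not analysed here. The median log2 difference of the 4 was -0.24. Erbb4, the fourth receptor, ran from 4.85 to 5.06 in EGFRvIII cells and stood at 4.92 and 4.31 in PDGF-B cells (log2 difference 0.36, adjusted p = 0.332). Nrg3, a neuregulin that binds Erbb4, stood between 3.43 and 3.75 in EGFRvIII cells, and at 6.64 and 3.54 in PDGF-B replicates 1 and 2. Its log2 difference of -1.47 (adjusted p = 0.314) rested on PDGF-B replicate 1: it was 0.08 without that array and -3.02 without PDGF-B replicate 2. The other Nrg3 probe set, 1460289_at, ran from 3.54 to 3.96 in EGFRvIII cells and stood at 4.44 and 3.93 in PDGF-B replicates 1 and 2. There the log2 difference was -0.51 (adjusted p = 0.214). Of 8 neuron markers with a probe set 3 were bright, and their array mean was 5.32 to 5.51 in EGFRvIII cells and 5.87 and 5.54 in PDGF-B replicates 1 and 2. Of the 8, Snap25 and Gad1 were highest in PDGF-B replicate 1, and Gad2 and Eno2 were lowest there. Their part in the Nrg3 value was not tested. Nrg4, another neuregulin that binds Erbb4, had a log2 difference of -0.37 (adjusted p = 0.411).

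**Figure D5:**
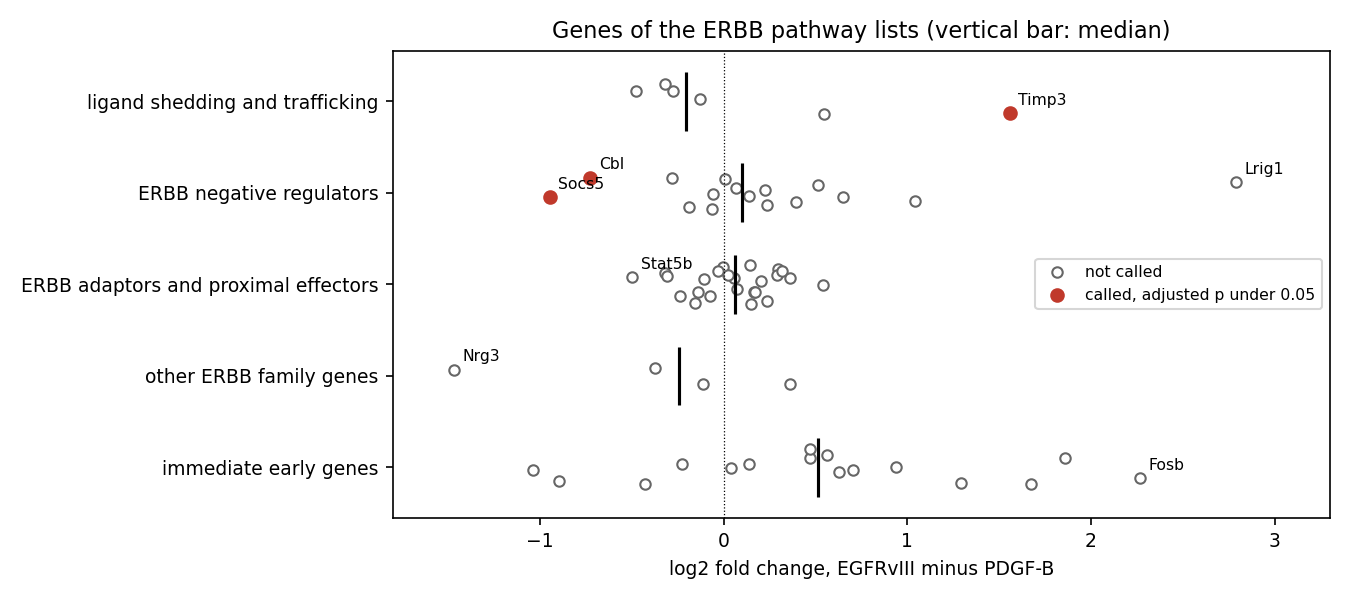
Log2 differences (EGFRvIII minus PDGF-B, x axis) of the genes of each list (rows), each gene by its brightest probe set; red points passed the test (limma adjusted p under 0.05), open points did not, and vertical bars are list medians. Timp3 is the called gene on the right and Socs5 and Cbl those on the left, while Lrig1 has the largest value of all and is open.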

How the data were processed

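RNA of 6 samples of sorted glioma cells was measured on Affymetrix-type probe sets, 1 array per sample. Per the labels' protocols, 30 ng of RNA was amplified to cDNA and biotin labelled; the labels name both DsRed and EGFP as reporter and call the cells both cultured and sorted. The deposited values are log2 intensities made by the authors with RMA and affy 3.4.2, per the submitters' processing notes; the log base was read from their range, 2.22 to 14.20. Gene symbols came from the platform annotation, updated by Entrez identifier to those of GRCm38.p6; 20380 probe sets had 1 symbol, 691 several and 1555 none, of which the last 2 kinds name no gene.

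All 22626 non-control probe sets were fitted with limma 3.58.1 (R 4.3.3; lmFit and eBayes, two-sided), with no filter, covariate or further normalization, and p-values were adjusted by Benjamini-Hochberg over all of them; a call is an adjusted p under 0.05. The fit had 4 residual and 3.03 prior degrees of freedom. The fit was also run on simulated data with planted changes. The simulated noise was independent between probe sets, so that run says nothing of variation shared across an array. Samples are biological replicates per the labels, which name no batch. Members and gene lists were chosen with earlier results of these data known. All member probe sets are named; of each other list up to 4 called genes, or the 3 of smallest p; Lrig1, Adam9, Adam10, Adam17, the astrocyte and neuron markers, Egr1, Egr2, Ier3 and Epgn were named after their values were seen. Likeness took the 5 nearest genes above the array median in at least 2 arrays; 1 of them is not reported here. Alternatives covered the other deposited table, scaling, filters, gene-level values, the variance model, array weights, the Xist signal as covariate, blocking on replicate number, leaving out each array in turn and a stricter threshold. Figures used matplotlib 3.10.9.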

Additional observations from a re-analysis of the deposited data

Results flagged for a closer look

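A lone distant array within the EGFRvIII group was looked for in 31 values, namely the 17 receptor and ligand probe sets and the means of 14 gene lists. It was found in 1 of them; by chance about 1 value in 20 would have one. The mean of the immediate early genes was 9.554 in EGFRvIII replicate 2 and between 8.769 and 8.853 in the other EGFRvIII arrays, and 8.22 and 8.72 in PDGF-B cells. None of the 17 receptor and ligand probe sets had such an array.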

How the results depend on the processing

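No alternative called any receptor or ligand probe set: the limma count of 0 stayed 0 under all 17 settings tried (those without dim probe sets tested 8 or fewer of the 17), with 1 to 8 probe sets at an unadjusted p under 0.05. Of 241 member values under the alternatives, 236 kept direction and side of the threshold and 5 turned sign without being called, all of dim ligands: Ereg at -0.0798 with centred arrays, -0.0203 with the replicate block and -0.0184 to 0.105 with 1 PDGF-B array left out (lowest without replicate 2), Btc 1435541_at at -0.0225 with centred arrays, and Egf at -0.0313 to 0.31 likewise. Centring took 0.12 off every difference. The Egfr 1460420_a_at difference of 1.30 ran from 0.63 with the replicate block to 1.92 with the Xist covariate. Of other named genes, Akt2 was -0.0014 with the mean of its probe sets, Nrg4 ran from -0.79 to 0.0388 and Nrg3 from -3.02 to 0.0838 with 1 PDGF-B array left out. The 192 calls over all probe sets became 316 with dim ones left out, 52 with gene means, 340 with a trended robust variance, 305 with array weights, 2 with the Xist covariate, 11 with the replicate block and 3 at an adjusted p under 0.01. Leaving out 1 array gave 2 (PDGF-B replicate 2) to 245 (EGFRvIII replicate 2) calls, with 11, 9, 100 and 5 without PDGF-B replicate 1 and EGFRvIII replicates 1, 3 and 4. Of the 3 calls in the pathway lists, 1 was left under quantile normalization, 0 with gene means, the Xist covariate, the replicate block or the stricter threshold, and 0 to 2 with 1 array left out. The causes were not tested. The groups share replicate numbers 1 and 2, and deviations of equal numbers correlated across probe sets at 0.18 in both pairs. PDGF-B replicate 1 and EGFRvIII replicate 4, of unequal number, correlated at 0.14. The deviations of the 2 PDGF-B arrays mirror each other, so the 2 pairs are not independent. With 2 pairs and no label tying them, the numbers were not taken as pairs. Dim probe sets limit what can be said of Ereg, Btc, Egf and Erbb2, and of Egfr outside its 1 bright probe set of 5.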

Other observations

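Near Erbb3 1434606_at lay a different set of genes from those near Egfr and Hbegf. Among the 5 nearest were Tnfaip6, a hyaluronan-binding secreted protein, at a distance of 0.38, Ier3, an immediate early gene, at 0.42, Trib1, a pseudokinase, at 0.43, and Nebl, an actin-binding protein, at 0.44. Ier3 stood at 7.97, 10.00, 8.40 and 8.49 in EGFRvIII replicates 1 to 4 and at 8.67 and 10.55 in PDGF-B cells. Its highest array of each group was the array with the highest Erbb3 of that group. Ier3 was picked for closeness to Erbb3 over the same 6 arrays, which favours such a match.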
